A study of Mus musculus with 9 samples.

Results

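The growth hormone receptor and insulin-like growth factor (IGF) axis was read in mouse liver from the 10 genes Ghr, Stat5a, Stat5b, Cish, Socs2, Igf1, Igfals, Igfbp1, Igfbp2 and Igfbp3. They were chosen by gene symbol, without regard to their values. Each symbol matched a single row of the 34745 genes in the table, and all 10 were among the 14134 genes with enough counts to be tested. Messenger RNA was sequenced from liver of C57BL/6 mice aged 12 weeks in 3 groups of 3 libraries: WT with the treatment label NC (replicates 1, 2 and 3), WT with CCl4 (11, 12 and 13) and KO with CCl4 (72, 75 and 79). The study used Tgfbr2f/f and Tgfbr2HKO mice, and gave CCl4, a liver toxin, in olive oil at 0.25 ml/kg into the peritoneum 2 times a week for 4 weeks. The sources used here do not say how Tgfbr2HKO was made, which cells lose the gene, whether WT carries the floxed allele in each group, or what NC means. No KO group without CCl4 was analysed here, so a KO difference that is present before CCl4 and one that appears under it cannot be told apart.

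In liver, growth hormone binds its receptor on hepatocytes, and the kinase JAK2 is activated. STAT5 proteins then move to the nucleus, where they raise transcription of Igf1 and Igfals. Most circulating IGF1 travels in a complex with IGFBP3 and the acid-labile subunit encoded by Igfals. CISH and SOCS2 are made in response to STAT5 and damp the same receptor, while IGFBP1 is a binding protein that insulin represses and fasting raises.

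With CCl4 in WT, 6 of the 10 genes fell: the receptor Ghr, the transcription factor Stat5b, the feedback gene Socs2, and Igf1, Igfals and Igfbp2, which encode secreted proteins. Ghr fell the furthest, 5.02-fold. No member rose past the test. Over all genes tested, 25% were called lower and 29.5% higher. In KO with CCl4, Ghr, Igf1, Igfals and Socs2 stood above every WT CCl4 library in 2 of the 3 libraries. In the third, the library labelled KO 75, Igf1, Igfals and Socs2 were among the WT CCl4 levels and Ghr was below them. In scaled counts, Igfbp2 and Stat5b were above every WT CCl4 library in all 3 KO libraries. Per length, Stat5b overlapped. No member passed the test between KO and WT under CCl4, where 3.46% of all genes were called higher and 1.61% lower. Without the library labelled KO 75, Ghr, Igf1 and Igfals were called higher in KO and Igfbp3 lower. In that fit 17.2% of all genes were called higher and 20.4% lower.

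Total counts ran from 16447353 to 20373585 per library. The share of counts from mitochondrial genes was 10.5% ± 1.46 in WT NC, 25.7% ± 0.494 in WT CCl4 and 20.2% ± 0.864 in KO CCl4 (SD, n = 3 each). Tgfbr2, the targeted gene, was at 30.2 to 38.6 CPM (counts scaled to library size with TMM normalisation) in WT NC and 75.2 to 127 CPM in WT CCl4. It was at 23.5, 69.9 and 28.3 CPM in KO 72, 75 and 79, so the library labelled KO 75 lay close to the lowest WT CCl4 library. A chi-square of counts between 2 libraries of a group, over its degrees of freedom, was 13.8 to 186, and the KO pairs that held replicate 75 had the highest values, 143 and 186. Tests of the KO group are therefore given with and without it. The pair WT CCl4 11 and 13 followed at 128, and each library was also left out in turn. The library labelled KO 75 was singled out from these same data. Leaving it out keeps KO 72 and 79, the pair with the lowest chi-square, 13.8. Genes called higher in KO than in WT under CCl4 then went from 3.46% to 17.2%, and lower from 1.61% to 20.4%. The p-values without it follow that choice and are not those of a test planned beforehand. The labels call the cell type hepatocyte. Hepatocyte markers were high in every library, with markers of macrophages, endothelium and stellate cells present in all 3 groups.

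Of all genes tested, 29.5% were called higher and 25% lower in WT CCl4 against WT NC (edgeR, adjusted p under 0.05). Of the 10 members, 0 were called higher and 6 lower, and their median log2 fold change was -1.08 against 0.04 over all genes tested. Between KO and WT under CCl4 the calls were 3.46% higher and 1.61% lower over all genes, and 0 of 10 members. At an unadjusted p under 0.05, 2 members were higher and 0 lower, where 16.4% of all genes were higher and 15.2% lower, so 2 of 10 is near the background. DESeq2 called 2 members higher and 0 lower, against 10.2% and 8.49% of all genes, and limma on FPKM called 0. Without the library labelled KO 75, 17.2% of genes were called higher and 20.4% lower, and of the members 3 were higher and 1 lower. Against WT NC, KO CCl4 had 14% of genes higher and 8.98% lower, with 0 and 1 of the members. Without the library labelled KO 75 these shares were 9.93% and 7.37%, again with 0 and 1 of the members (Ghr in place of Igfbp2). The first pair of comparisons share the WT CCl4 libraries, so a member that is by chance low in them falls in one and is higher in the other. The labels do not say that the samples of a group were separate animals, so the p-values speak only of how these libraries spread.

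**Figure D1:**
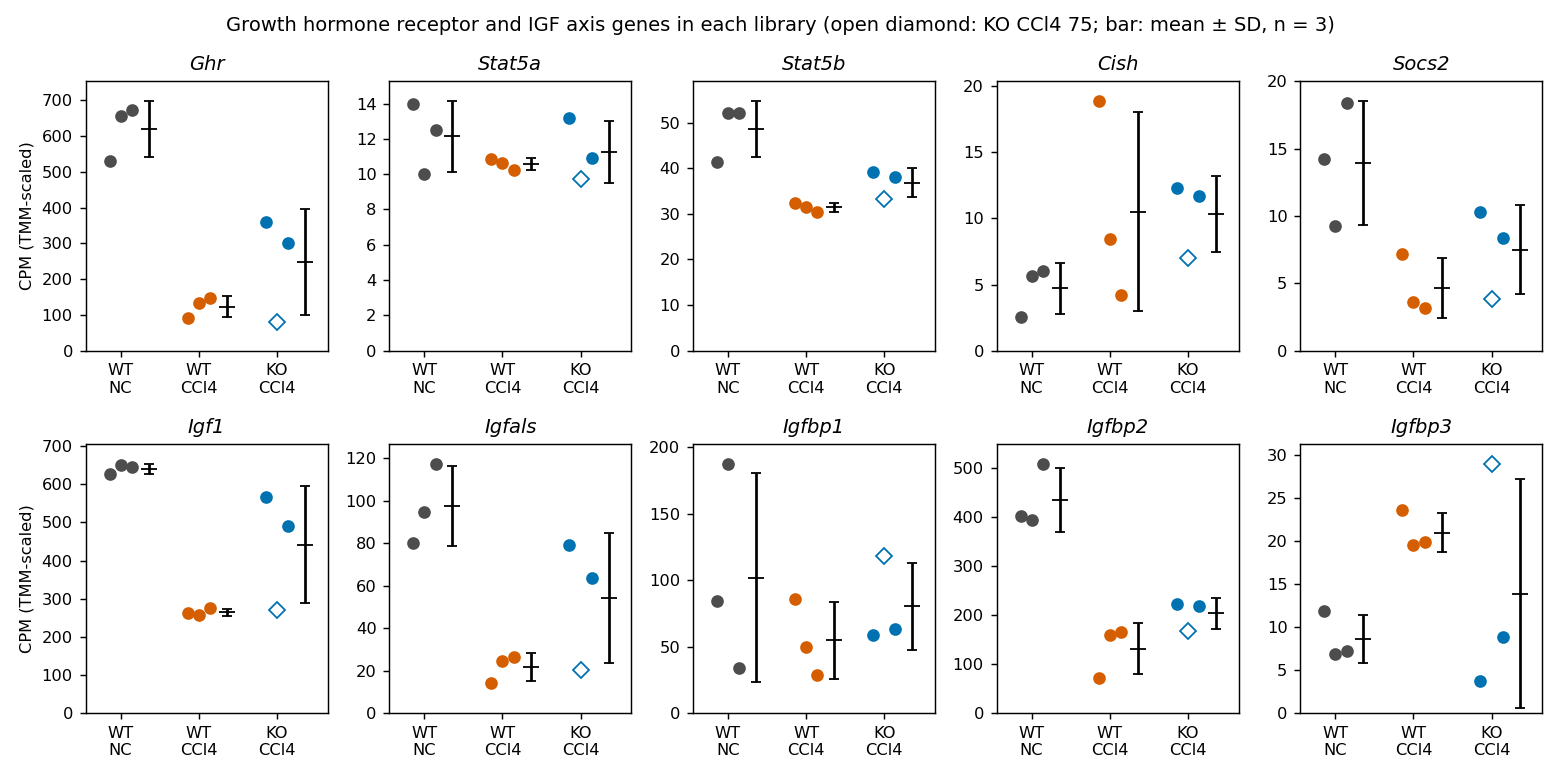
Level of each of the 10 genes in every library, in TMM-scaled CPM on a linear axis from 0. Points are libraries, the open diamond is the library labelled KO 75, and bars are the mean and SD of 3 libraries; for Ghr, Igf1 and Igfals the diamond sits at or below the WT CCl4 points and the other KO points lie between those and WT NC.

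The promoter of a STAT5 target can hold the palindrome TTCNNNGAA, to which STAT5 dimers bind. RefSeq promoter windows (GRCm38.p6, 250 bases before a start site and 50 bases from it on) were found for 9 of the 10 members, 15 windows in all. Socs2 had no window. The motif, searched as TTCNNNGAA, which reads the same on both strands, was in windows of 2 members, Igfals and Cish. It occurs in 8.30% of the 32851 windows of all genes, and 0.457% hold 2 or more. These shares are per window, whereas the 2 members are counted per gene, so they are not like measures. The member windows that hold the motif are shown, with the motif in capitals. Igfals was called lower with CCl4 in WT, and Cish was not called. Igfals had it in 2 of 3 windows, starting 236 and 58 bases before the start site, at chr17:24877594-24877893 and chr17:24877981-24878280, both on the plus strand. Cish had it 2 times, starting at bases 1 and 12 with the start site counted as base 1, at chr9:107296409-107296708 on the plus strand. A match is a description of the letters and not evidence of binding.
Igfals, upstream start site: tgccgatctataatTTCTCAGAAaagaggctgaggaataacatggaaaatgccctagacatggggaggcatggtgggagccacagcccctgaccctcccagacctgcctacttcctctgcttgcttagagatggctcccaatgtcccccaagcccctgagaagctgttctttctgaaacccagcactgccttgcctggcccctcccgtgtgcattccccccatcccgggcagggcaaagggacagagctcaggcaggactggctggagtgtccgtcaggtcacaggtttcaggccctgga
Igfals, middle start site: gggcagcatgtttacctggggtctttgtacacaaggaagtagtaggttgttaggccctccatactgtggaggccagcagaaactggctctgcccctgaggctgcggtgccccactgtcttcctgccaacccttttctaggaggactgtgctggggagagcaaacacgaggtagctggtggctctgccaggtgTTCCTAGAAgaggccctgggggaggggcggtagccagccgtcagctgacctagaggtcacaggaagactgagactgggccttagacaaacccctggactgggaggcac
Cish: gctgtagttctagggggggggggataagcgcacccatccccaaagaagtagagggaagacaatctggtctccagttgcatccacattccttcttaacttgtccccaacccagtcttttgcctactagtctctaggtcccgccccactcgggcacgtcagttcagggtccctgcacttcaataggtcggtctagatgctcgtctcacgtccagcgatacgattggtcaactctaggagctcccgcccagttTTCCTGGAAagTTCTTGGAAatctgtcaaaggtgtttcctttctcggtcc

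Ghr, the growth hormone receptor (ENSMUSG00000055737, mm10 chr15:3317760-3583492, minus strand), was read at 530.9, 656 and 673 CPM in WT NC 1, 2 and 3. In WT CCl4 11, 12 and 13 it was at 90.4, 134 and 146 CPM. In KO 72, 75 and 79 it was at 360.0, 78.9 and 302 CPM. Every WT CCl4 library was below every WT NC library, KO 72 and 79 lay between those groups, and the library labelled KO 75 had the lowest value of all 9. Means were 619.9 ± 77.6 CPM in WT NC, 123 ± 29.3 in WT CCl4 and 247 ± 148 in KO CCl4 (SD, n = 3 each). On the log2 scale the change with CCl4 in WT was -2.33 ± 0.48 (SE, edgeR adjusted p = 0.00392), and it passed the threshold in all 16 alternatives. KO against WT under CCl4 gave 1.00 ± 0.47 (adjusted p = 0.172, 95% interval -0.049 to 2.05), and without the library labelled KO 75 it gave 1.43 (adjusted p = 0.00218). KO CCl4 against WT NC gave -1.33 ± 0.47 (adjusted p = 0.0677), and -0.90 without that library (adjusted p = 0.0280). In bulk liver RNA, fewer cells of a type and less RNA per cell cannot be told apart.

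JAK2 is the kinase bound to the receptor. Jak2 was at 23.2 to 25.1 CPM in WT NC, at 76.9, 42.6 and 24.9 CPM in WT CCl4 11, 12 and 13, and at 23.6 to 29.3 CPM in KO CCl4. WT CCl4 13 lay within the WT NC levels, and the higher mean came from the other two libraries. Jak2 was called higher with CCl4 in WT, by 1.01 ± 0.34 on the log2 scale (adjusted p = 0.0314), but the call was lost when any WT NC library, WT CCl4 11 or WT CCl4 12 was left out, with 0.50 without WT CCl4 11.

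Stat5a (ENSMUSG00000004043, chr11:100859351-100885169, plus strand) and Stat5b (ENSMUSG00000020919, chr11:100780731-100850724, minus strand) lie head to head, 8626 bp apart. They encode closely related transcription factors, and Stat5b is the main form in liver. How reads shared by the pair were assigned is not stated, so their separate values are uncertain to that extent. Stat5b was at 41.5, 52.1 and 52.2 CPM in WT NC, 32.5, 31.5 and 30.4 CPM in WT CCl4, and 39.2, 33.2 and 38.1 CPM in KO 72, 75 and 79. In CPM the 3 groups did not overlap, with KO CCl4 in the middle. In FPKM the WT CCl4 range, 5.87 to 6.50, overlapped both WT NC, at 6.47 to 8.49, and KO CCl4, at 5.61 to 6.47. The fall with CCl4 in WT was small, -0.63 ± 0.14 on the log2 scale (adjusted p = 0.00575). It was not called on the FPKM scale, at -0.24 with a pseudocount of 1 (limma adjusted p = 0.138). Stat5b in KO against WT under CCl4 was at 0.23 ± 0.14 (adjusted p = 0.288), or 0.30 without the library labelled KO 75 (adjusted p = 0.139). KO CCl4 against WT NC was -0.40 ± 0.14 (adjusted p = 0.0682), or -0.33 without it (adjusted p = 0.160).

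Stat5a was at 14.0, 9.998 and 12.5 CPM in WT NC, 10.9, 10.6 and 10.2 CPM in WT CCl4, and 13.2, 9.71 and 10.9 CPM in KO CCl4. The groups overlapped and no comparison passed the test, with or without the library labelled KO 75. The 95% interval of the CCl4 difference in WT was -0.62 to 0.22 on the log2 scale, and whether the pair differ in their response was not tested. Per length, the Stat5b level was above Stat5a in all 9 libraries. The ratio of Stat5b to Stat5a FPKM was 7.02 ± 1.91 in WT NC, 5.07 ± 0.0204 in WT CCl4 and 5.60 ± 0.469 in KO CCl4 (SD, n = 3 each), with WT NC 1, at 5.06, inside the WT CCl4 range. The last 72 bases of Stat5a overlap Stat3, which is transcribed on the other strand, and the use of strand in counting is not stated.

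Socs2 (ENSMUSG00000020027, chr10:95385362-95417180, minus strand) and Cish (ENSMUSG00000032578, chr9:107296026-107302784, plus strand) both encode SH2-domain proteins that are induced by STAT5 and restrain growth hormone signalling. Socs2 was at 14.2, 9.24 and 18.4 CPM in WT NC, 7.19, 3.61 and 3.16 CPM in WT CCl4, and 10.3, 3.87 and 8.36 CPM in KO 72, 75 and 79. The WT groups did not overlap, and the library labelled KO 75 was the only KO library among the WT CCl4 levels. The change with CCl4 in WT was -1.59 ± 0.45 on the log2 scale (adjusted p = 0.0148), and the call was lost without WT NC 3 (-1.37, adjusted p = 0.0526) or WT CCl4 12 (-1.43, adjusted p = 0.0555). Socs2 in KO against WT under CCl4 was at 0.69 ± 0.44 (adjusted p = 0.298), or 1.01 without the library labelled KO 75 (adjusted p = 0.0697). Against WT NC it was -0.90 ± 0.44 (adjusted p = 0.159), or -0.58 without it (adjusted p = 0.338).

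Cish was at 2.52, 5.65 and 6.03 CPM in WT NC. It was at 18.9, 8.44 and 4.21 CPM in WT CCl4 11, 12 and 13. In KO 72, 75 and 79 it was at 12.3, 7.02 and 11.7 CPM. WT CCl4 spread across the levels of both other groups, while every KO library was above every WT NC library. CCl4 against NC in WT gave 1.15 ± 0.53 (adjusted p = 0.0960), 0.42 without WT CCl4 11 and 1.52 without WT CCl4 13 (adjusted p = 0.0244), so single libraries set both the size and the call. KO CCl4 against WT NC gave 1.12 ± 0.53 (adjusted p = 0.153), and 1.34 without the library labelled KO 75 (adjusted p = 0.133). Against WT CCl4 the KO value was -0.026 ± 0.52 (adjusted p = 0.977), and 0.19 without it (adjusted p = 0.804). The ratio of Cish to Socs2 FPKM was 0.224 to 0.772 in WT NC, 1.68 to 3.31 in WT CCl4 and 1.50 to 2.29 in KO CCl4. Both groups with CCl4 were above WT NC in every library, including the library labelled KO 75 at 2.29, whereas exact permutation of 3 libraries against 3 cannot give a two-sided p below 0.1. Part of Cish overlaps a pseudogene and an antisense gene on the other strand, with 37 and 0 counts over all libraries.

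Igf1 (ENSMUSG00000020053, chr10:87858265-87937042, plus strand), the hormone made by hepatocytes under growth hormone, was at 626, 650.5 and 646 CPM in WT NC. In WT CCl4 it was at 262, 258 and 276 CPM. In KO 72, 75 and 79 it was at 566, 269.9 and 491 CPM. Within each WT group the libraries lay close together, and the library labelled KO 75 sat inside the WT CCl4 range while the other KO libraries were between the WT groups. Igf1 fell 2.42-fold with CCl4 in WT (log2 fold change -1.27 ± 0.26, adjusted p = 0.00346), called in all 16 alternatives. KO against WT under CCl4 gave 0.74 ± 0.25 (adjusted p = 0.0937 in edgeR and 0.0388 in DESeq2), and 1.00 without the library labelled KO 75 (adjusted p = 0.00151). KO CCl4 against WT NC gave -0.54 ± 0.25 (adjusted p = 0.150), and -0.28 without it (adjusted p = 0.209). Igf1os, an antisense gene within Igf1, had 118 counts over all libraries.

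Igfals (ENSMUSG00000046070, chr17:24878770-24882008, plus strand), the acid-labile subunit, was at 80.4, 94.9 and 118 CPM in WT NC and 14.4, 24.8 and 26.5 CPM in WT CCl4. In KO 72, 75 and 79 it was at 79.1, 20.3 and 63.5 CPM. KO 72 came close to the lowest WT NC library, and the library labelled KO 75 was among the WT CCl4 levels. Igfals fell 4.46-fold with CCl4 in WT (log2 fold change -2.16 ± 0.46, adjusted p = 0.00420), called in all 16 alternatives. KO against WT under CCl4 gave 1.31 ± 0.45 (adjusted p = 0.0912 in edgeR and 0.0283 in DESeq2), and 1.71 without the library labelled KO 75 (adjusted p = 0.00232). KO CCl4 against WT NC gave -0.85 ± 0.44 (adjusted p = 0.183), and -0.45 without that library (adjusted p = 0.283).

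Per length, the receptor, the hormone and the complex subunit were at like levels in WT NC, at 46.8 ± 6.50, 44.4 ± 2.20 and 42.3 ± 9.63 FPKM for Ghr, Igf1 and Igfals (SD, n = 3 each), which did not differ beyond their spread. In WT CCl4, Igf1 at 23.3 ± 0.522 FPKM was above Ghr at 11.8 ± 2.63 and Igfals at 11.9 ± 3.43 FPKM. The ratio of Igf1 to Ghr FPKM was 0.881 to 1.08 in WT NC, 1.73 to 2.66 in WT CCl4, and 1.44, 3.14 and 1.49 in KO 72, 75 and 79. It was thus higher in all 6 CCl4 libraries than in any WT NC library, and highest in the library labelled KO 75. The ratio of Ghr to Igfals FPKM moved less, from 1.00 to 1.21 in WT NC, 0.943 to 1.10 in WT CCl4 and 0.681 to 0.831 in KO CCl4, where all 3 libraries were below every WT library.

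**Figure D2:**
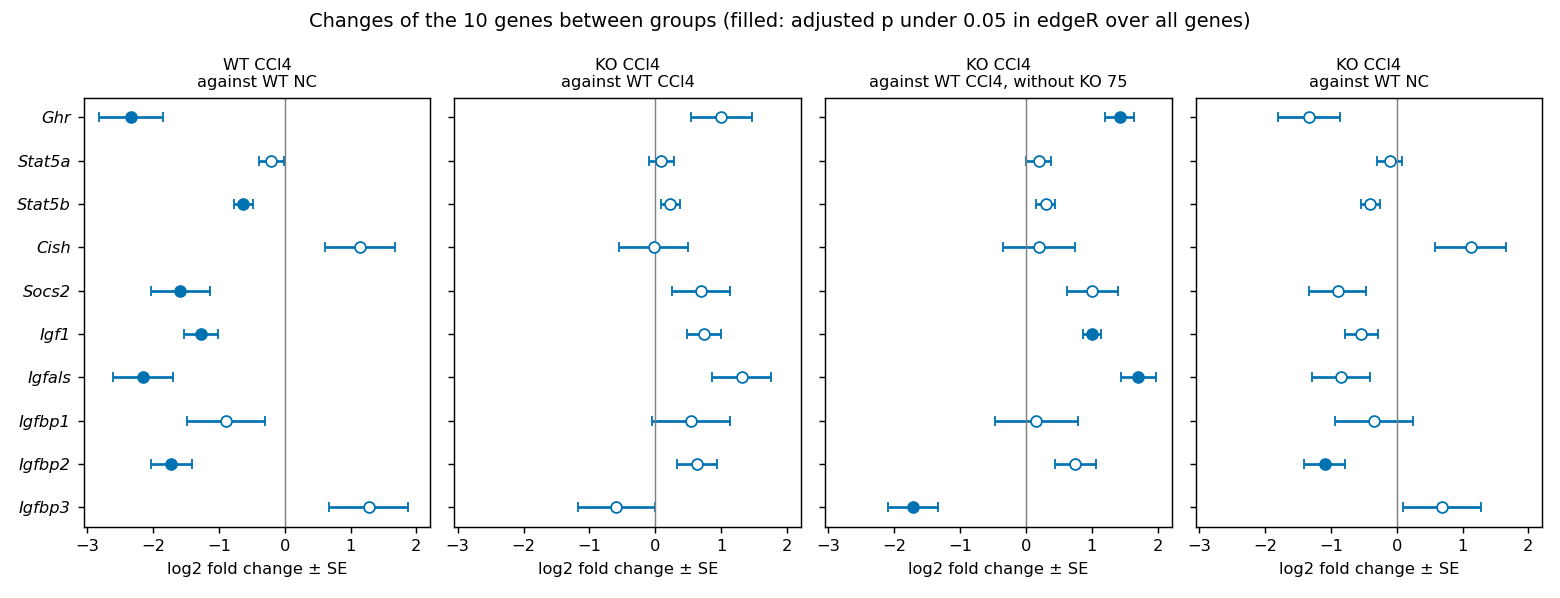
Log2 fold change of each gene with its SE in WT CCl4 against WT NC, KO against WT under CCl4 with all libraries, the same without the library labelled KO 75, and KO CCl4 against WT NC. Filled points passed an adjusted p of 0.05 in edgeR: 6 in the first panel, 0 in the second, 4 in the third and 1 in the last.

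Igfbp2 (ENSMUSG00000039323, chr1:72824503-72852474, plus strand) encodes a main circulating binding protein of liver. It was at 403, 393 and 509 CPM in WT NC, 71.2, 159 and 165 CPM in WT CCl4, and 223, 168 and 219 CPM in KO 72, 75 and 79. The 3 groups did not overlap, and the library labelled KO 75 lay just above the highest WT CCl4 library. On the log2 scale the change with CCl4 in WT was -1.72 ± 0.31 (adjusted p = 0.00225), and it was called in all 16 alternatives. Igfbp2 was the only member called between KO CCl4 and WT NC, at -1.09 ± 0.31 (adjusted p = 0.0335). That call was lost in 6 of the 9 fits that left out 1 library, with log2 fold changes of -0.98 to -1.16 without WT NC 1, 2 or 3, -1.09 without WT CCl4 12, -0.97 without the library labelled KO 75 and -1.15 without KO 79. KO against WT under CCl4 gave 0.63 ± 0.30 (adjusted p = 0.188), and 0.75 without the library labelled KO 75 (adjusted p = 0.0906).

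Igfbp1 (ENSMUSG00000020429, chr11:7197782-7202546, plus strand) and Igfbp3 (ENSMUSG00000020427, chr11:7206086-7213923, minus strand) are neighbours, with their 3' ends 3539 bp apart. Igfbp1 was at 84.7, 188 and 34.0 CPM in WT NC, 86.2, 50.2 and 28.9 CPM in WT CCl4, and 59.2, 118 and 63.6 CPM in KO 72, 75 and 79. Libraries differed widely within each group, the groups overlapped throughout, and no comparison passed the test. The interval for CCl4 against NC in WT, -2.24 to 0.46 on the log2 scale, leaves room for a difference as large as that of Igfbp2. Igfbp1 in KO against WT under CCl4 was at 0.54 ± 0.60 (adjusted p = 0.540), and 0.16 without the library labelled KO 75 (adjusted p = 0.860).

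Igfbp3, which forms the circulating complex with IGF1 and the acid-labile subunit, was at 11.9, 6.89 and 7.20 CPM in WT NC. In WT CCl4 it was at 23.6, 19.6 and 19.9 CPM. In KO 72, 75 and 79 it was at 3.82, 29.0 and 8.91 CPM. Every WT CCl4 library was above every WT NC library, and the library labelled KO 75 had the highest value of all 9. KO 79 lay within the WT NC range and KO 72 below every WT NC library. CCl4 against NC in WT gave 1.28 ± 0.60 (adjusted p = 0.0977). It was called without KO 72 (1.28, adjusted p = 0.0268), without the library labelled KO 75 (1.28, adjusted p = 0.00760) and in a fit of the WT libraries alone (1.29, adjusted p = 0.00269). Igfbp3 in KO against WT under CCl4 was at -0.59 ± 0.59 (adjusted p = 0.500), and -1.72 without the library labelled KO 75 (adjusted p = 0.00811). Against WT NC it was at 0.69 ± 0.60 (adjusted p = 0.418), and -0.44 without that library (adjusted p = 0.443). Igfals and Igfbp3, which join the same complex, thus lay on opposite sides of WT NC in WT CCl4, and the ratio of Igfbp3 to Igfals FPKM was 0.0342 to 0.0826 in WT NC, 0.419 to 0.918 in WT CCl4, and 0.0269, 0.799 and 0.0783 in KO 72, 75 and 79.

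The transcripts of Igfbp1 to Igfbp7 were summed per length to set the members beside the other binding proteins. The sum was 417 ± 19.4 FPKM in WT NC, 252 ± 40.2 in WT CCl4 and 274 ± 59.2 in KO CCl4 (SD, n = 3 each). Both CCl4 groups were below WT NC in every library. FPKM are not scaled by TMM, whose factors were 0.865 to 0.955 in WT NC, 1.13 to 1.17 in WT CCl4 and 0.841 to 1.14 in KO CCl4. The size of a difference in the sum between libraries is therefore uncertain, while shares within a library do not depend on that scaling. Igfbp4, another secreted binding protein, held 44.4% ± 2.12 of the sum in WT NC and 20.1% ± 7.71 in WT CCl4. In KO 72, 75 and 79 it held 46.2%, 24.0% and 43.4%, so that 2 KO libraries were at the WT NC share. Igfbp2 held 35.5% ± 7.56 in WT NC, 23.0% ± 10.7 in WT CCl4 and 26.7% ± 5.10 in KO CCl4, with overlapping libraries. Igfbp7, a related protein made mainly by vascular cells, held 4.46% to 6.49% in WT NC and 25.2% to 29.9% in WT CCl4. In the library labelled KO 75 it held 23.2%, against 8.17% and 11.1% in the other KO libraries. Igfbp3 held 0.359% to 0.719% in WT NC and 2.08% to 2.85% in WT CCl4, a minor part in both. The Igf1 level over the summed binding proteins was 0.0976 to 0.114 in WT NC and 0.0789 to 0.114 in WT CCl4, and these ranges overlapped. It was 0.158, 0.0688 and 0.132 in KO 72, 75 and 79, so that 2 KO libraries were above every WT library and the library labelled KO 75 was below every one.

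**Figure D3:**
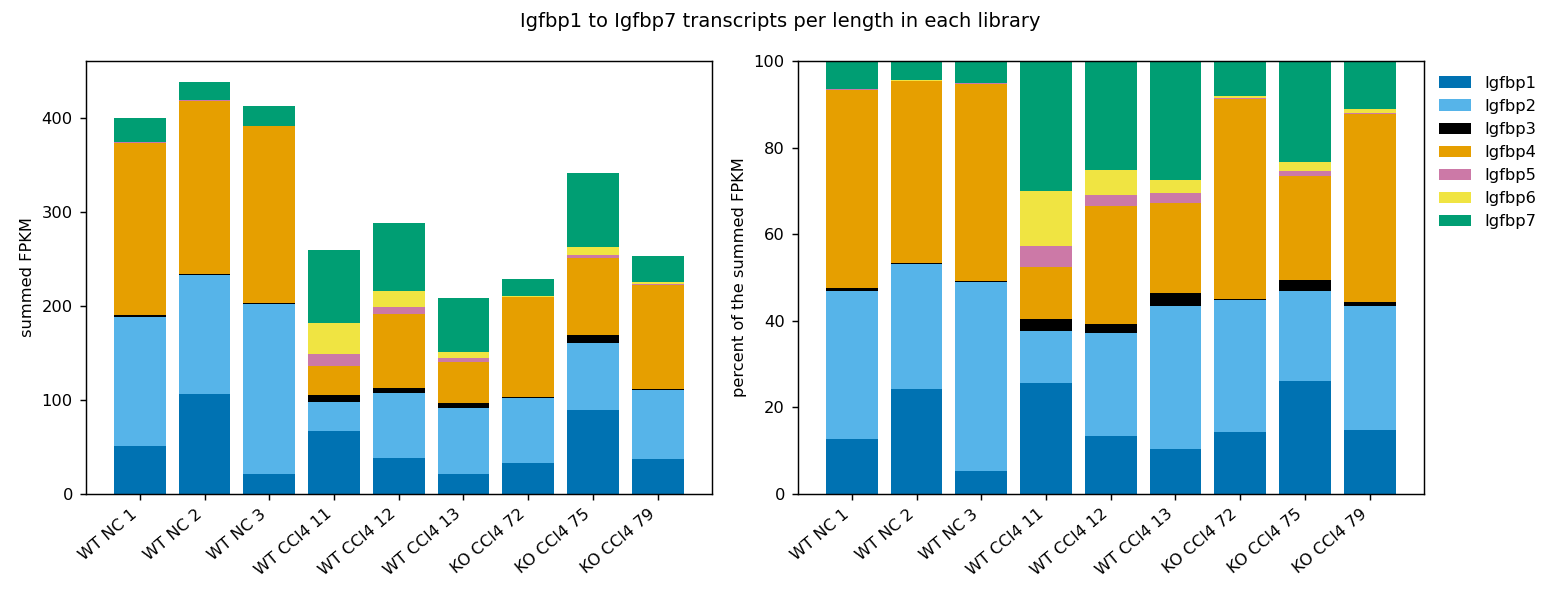
Stacked FPKM of Igfbp1 to Igfbp7 in each library (left, summed FPKM) and as percent of that sum (right). In FPKM, the Igfbp2 and Igfbp4 bars are shorter and the Igfbp7 bar is taller in every WT CCl4 library than in any WT NC library; KO 72 and 79 have Igfbp4 shares like those of WT NC.

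Other genes of the pathway were counted by list, to be read beside the shares of all genes tested that edgeR called. These were 29.5% higher and 25% lower in WT CCl4 against WT NC. For KO against WT under CCl4 they were 3.46% and 1.61%, or 17.2% and 20.4% without the library labelled KO 75. For KO CCl4 against WT NC they were 14% and 8.98%. Among 13 genes of growth hormone receptor and STAT signalling, 5 rose and 2 fell with CCl4 in WT (median log2 fold change 0.64). Socs3, a cytokine-induced inhibitor of JAK signalling, rose by 3.22 ± 0.59 on the log2 scale (adjusted p = 0.00236), from 8.21 to 19.1 CPM in WT NC to 44.9 to 261 CPM in WT CCl4. Ptpn6, a phosphatase of blood cells that removes phosphate from cytokine receptor complexes, rose by 1.69 ± 0.36 on the log2 scale (adjusted p = 0.00436). Thus Socs3 rose where Socs2 fell. None of the 13 was called between KO and WT under CCl4 (edgeR; 2 higher and 1 lower at an unadjusted p under 0.05, shares near or below the 16.4% and 15.2% of all genes), and without the library labelled KO 75 the calls were 3 higher and 2 lower. Against WT NC, 4 were called higher in KO CCl4 and 0 lower, or 2 and 0 without that library, where 9.93% of all genes were higher. Socs3 was at 2.11 ± 0.57 there (adjusted p = 0.0295; 2.20 without the library labelled KO 75, adjusted p = 0.0388), and the call was lost when any WT NC library or KO 79 was left out.

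The IGF receptors and adaptors held 7 genes with enough counts of 8, of which 3 rose and 2 fell with CCl4 in WT (median -0.0012). Over all genes, 29.5% were called higher and 25% lower there. Igf1r, the receptor of IGF1, had 4, 0 and 7 counts in WT NC, 67, 64 and 42 in WT CCl4, and 19, 57 and 25 in KO 72, 75 and 79. It rose in WT CCl4 (log2 fold change 3.68 ± 0.72, adjusted p = 0.00309) and in KO CCl4 against WT NC (2.94 ± 0.72, adjusted p = 0.0219), the latter 2.46 without the library labelled KO 75 and not called without WT NC 1, from a level at or near the floor of 3 counts, so the size is uncertain. Grb10, an adaptor that restrains insulin and IGF1 receptors, rose from 3.31 to 4.65 CPM in WT NC to 22.2 to 33.1 CPM in WT CCl4 (2.77 ± 0.32, adjusted p = 0.000626). Insr, the insulin receptor, fell as well (log2 fold change -1.53 ± 0.27, adjusted p = 0.00200). Grb10 was the only gene of this list called between KO and WT under CCl4, at 7.45, 15.2 and 7.59 CPM in KO 72, 75 and 79 (log2 fold change -1.41 ± 0.30, adjusted p = 0.0442). All KO libraries were below all WT CCl4 libraries, and the call was lost in 7 of 9 fits without 1 library, at values of -1.45 to -1.24. Without the library labelled KO 75 it was kept (-1.84, adjusted p = 0.00103). In that fit 2 genes of the list were called higher and 2 lower, against 17.2% and 20.4% of all genes. Against WT NC, Grb10 was higher in KO CCl4 (1.35 ± 0.31, adjusted p = 0.0184), with 0.93 without the library labelled KO 75 (adjusted p = 0.0243) and no call without WT NC 2 or 3. Igf2, the fetal ligand, had 0 to 12 counts per library and was not tested.

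Of 12 other binding proteins, proteases and Igf2bp genes, 8 had enough counts. With CCl4 in WT, 7 rose while 1 fell (median 3.51), where 29.5% of all genes were called higher and 25% lower. Igfbp4 was the one that fell, from 1241 ± 52.4 to 271 ± 130 CPM (SD over 3 libraries), with a log2 fold change of -2.20 ± 0.36 and an adjusted p of 0.00166. Igfbp5, a binding protein of matrix-producing cells, rose by 3.97 ± 0.61 on the log2 scale (adjusted p = 0.00128) and Igf2bp2, an RNA-binding protein, by 3.28 ± 0.44 (adjusted p = 0.000975). None of the 8 was called between KO and WT under CCl4 (edgeR). At an unadjusted p under 0.05, 1 was higher and 5 lower, where all genes had 16.4% and 15.2%. Without the library labelled KO 75, 1 was called higher and 6 lower, against 17.2% and 20.4% of all genes. In KO against WT under CCl4, Igfbp4 was at 768, 438 and 750.4 CPM in KO 72, 75 and 79 (1.27 ± 0.35, adjusted p = 0.0621, and 1.49 without the library labelled KO 75, adjusted p = 0.00799). Against WT NC, 3 were higher in KO CCl4 and 0 lower (1 and 0 without that library), among them Igf2bp2 (2.48 ± 0.43, adjusted p = 0.00696, and 2.21 without it) and Igfbp6 (3.84 ± 1.08, adjusted p = 0.0339). The Igfbp6 call was lost in 6 of 9 fits without 1 library, with 2.84 without the library labelled KO 75. In WT NC 1, 2 and 3, Igf2bp2 had 9, 16 and 9 counts and Igfbp6 had 5, 7 and 0. The size of their changes against WT NC is therefore uncertain.

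Transcription factors of hepatocytes that growth hormone regulates had 5 of 6 genes tested. With CCl4 in WT, 3 fell while 0 rose (median -1.87), where 25% of all genes were called lower and 29.5% higher. Bcl6, a repressor that competes with STAT5 for its sites, was at 70.2 to 84.8 CPM in WT NC, 20.2 to 22.9 CPM in WT CCl4, and 7.03, 9.14 and 9.46 CPM in KO 72, 75 and 79. It fell in WT CCl4 against WT NC (log2 fold change -1.87 ± 0.16, adjusted p = 0.000223) and was lower still in KO than in WT under CCl4 (-1.33 ± 0.16, adjusted p = 0.0118, and -1.38 without the library labelled KO 75). The library labelled KO 75 was here with the other KO libraries, unlike for Ghr, Igf1 and Igfals. The second call was lost without WT CCl4 12 or KO 79, at -1.37 and -1.41, and in a fit of the CCl4 libraries alone. Nr1i3, a nuclear receptor of drug metabolism, fell with CCl4 in WT (-3.42 ± 0.39, adjusted p = 0.000605). Onecut1, a hepatocyte factor that growth hormone raises in rodents, was at 7.06 to 9.06 CPM in WT CCl4 and 39.8, 9.76 and 45.6 CPM in KO 72, 75 and 79 (2.03 ± 0.49, adjusted p = 0.0496). That call was lost in 8 of the 9 fits without 1 library, all but the fit without the library labelled KO 75 (2.47, adjusted p = 0.000443). Without that library the list had 2 genes higher and 1 lower in KO than in WT under CCl4, against 17.2% and 20.4% of all genes. Against WT NC, 1 gene of this list was higher and 3 lower in KO CCl4, with or without it, with Bcl6 at -3.20 ± 0.17 (adjusted p = 3.05e-05) and Tox, a chromatin factor, at -2.10 ± 0.37 (adjusted p = 0.00698). These were -3.25 and -2.47 without that library.

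Among 8 genes of FOXO1 and insulin repression, 5 fell and 0 rose with CCl4 in WT (median -0.61), against 25% and 29.5% of all genes. Igfbp1 belongs to the same class of insulin-repressed genes. Pck1, the rate-limiting enzyme of gluconeogenesis, was at 3549 to 4621 CPM in WT NC, 36.8 to 78.6 CPM in WT CCl4 and 531, 349.6 and 479 CPM in KO 72, 75 and 79. It fell 70.0-fold with CCl4 in WT (log2 fold change -6.13 ± 0.38, adjusted p = 6.84e-05) and was higher in KO than in WT under CCl4 (2.91 ± 0.33, adjusted p = 0.00909, and 3.07 without the library labelled KO 75), a call lost without WT CCl4 12 or KO 79 (2.97 and 2.88). No group overlapped another, with the library labelled KO 75 on the side of the KO group. G6pc, which releases glucose, fell with CCl4 in WT (-4.15 ± 0.84, adjusted p = 0.00346). Ppargc1a, a coactivator of gluconeogenic genes, was at 10.02 to 11.3 CPM in KO CCl4 and 4.40 to 6.32 CPM in WT CCl4 (0.91 ± 0.20, adjusted p = 0.0451, and 0.85 without the library labelled KO 75), a call lost in 7 of 9 fits without 1 library at values of 0.76 to 0.97. Without the library labelled KO 75, 3 of the 8 were called higher and 2 lower in KO than in WT under CCl4. The shares over all genes were 17.2% and 20.4% in that fit. Against WT NC, 3 of the 8 were lower in KO CCl4 (1 without that library), among them Pck1 (-3.22 ± 0.33, adjusted p = 0.000800) and Foxo3 (-0.69 ± 0.18, adjusted p = 0.0287), the latter lost in 5 of 9 such fits. Without that library they were -3.06 and -0.67, and the Foxo3 call was among those lost.

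The genes whose levels followed a member most closely over the 9 libraries were ranked by Pearson's r of log2 CPM among 9924 genes, as a description. All libraries share the same 3 groups, so genes that differ between groups in any like way rank high. For Ghr they were Ces3a, Optn and Dhdh (r = 0.996, 0.996 and 0.995), for Igf1 Slc25a42 and Acaa1a (0.996 and 0.995), and for Igfals Tmem25, Sardh and Il1rap (0.994 each). Ces3a, a liver carboxylesterase, had means of 2406 CPM in WT NC, 203 in WT CCl4 and 617 in KO CCl4. For Igfbp2 they were Yod1, Yap1 and Klf15 (0.987, 0.985 and 0.985), and for Socs2 Sidt2, Riok3 and Tcf25 (0.976, 0.974 and 0.971). Igfbp1 had no partner as close, with Smagp, Rnaset2b and AI837181 at 0.900, 0.899 and 0.894.

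Levels of cell type markers moved with the same groups. Over all genes tested, 29.5% were called higher and 25% lower with CCl4 in WT. Between KO and WT under CCl4, 3.46% were called higher and 1.61% lower. The 10 hepatocyte markers summed to 107335 to 125221 CPM in WT NC, 46820 to 80783 in WT CCl4 and 90771 to 113255 in KO CCl4, and 8 of the 10 were called lower with CCl4 in WT and 2 higher in KO than in WT under CCl4. The library labelled KO 75 had 90771 CPM of them, above every WT CCl4 library. Its Ghr was the lowest of all libraries and its Igf1 and Igfals were within the WT CCl4 range. The 10 macrophage markers summed to 303 to 373 CPM in WT NC, 1894 to 4525 in WT CCl4 and 496, 2758 and 927 in KO 72, 75 and 79. The 10 stellate cell and myofibroblast markers summed to 103 to 256 CPM in WT NC, 1328 to 2026 in WT CCl4 and 232, 1400.0 and 439 in the same KO libraries. All 10 genes of both lists were called higher with CCl4 in WT, as were 9 of 10 endothelial markers, which summed to 308 to 410 CPM in WT NC, 959 to 1183 in WT CCl4 and 615, 914 and 639 in KO. The 8 cell division genes summed to 45.7 to 46.7 CPM in WT NC, 594 to 765 in WT CCl4 and 123, 573 and 219 in KO. Of these 8, 3 were called lower in KO than in WT under CCl4. No gene of the macrophage, stellate cell or endothelial lists was called in that comparison. For all of these lists the library labelled KO 75 was the KO library nearest to WT CCl4. Markers of exocrine pancreas summed to 13.6 to 16.5 CPM in WT NC, 15.2 to 1160 in WT CCl4 and 29.0 to 172 in KO CCl4, and those of mesothelium to 0 to 0.199, 35.7 to 150.4 and 3.58 to 25.8 CPM. Among the markers, Ly6g and Mpo of neutrophils, Cela3b of pancreas, and Upk3b and Lrrn4 of mesothelium were at 0 in all WT NC libraries. The part of these cell mixtures in the results for the axis was not tested.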

How the data were processed

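The 9 liver libraries were placed in 3 groups of 3 by the sample titles. Per the file headers, the authors deposited a single table with raw read counts and FPKM for each gene. The submitters' processing notes name HISAT2 2.0.4, StringTie 1.3.0 and the build mm10 (GRCm38.p4). Which tool counted the reads, whether it used strand and how it treated reads shared between genes is not stated. Of the 34745 genes, 14141 had no count.

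Counts were tested in edgeR 4.0.16 (R 4.3.3) by quasi-likelihood F tests after TMM normalisation, on the 14134 genes that passed filterByExpr. All 9 libraries entered a single model with 1 mean per group, and p-values were adjusted by Benjamini-Hochberg over every gene tested (threshold 0.05). The common biological coefficient of variation was 0.312, with 3.19 prior degrees of freedom. Each SE is the absolute log2 fold change divided by the root of F. CPM are scaled by TMM, and 3 counts in a library stood for 0.141 to 0.207 CPM. The test was checked on simulated counts in which few genes changed, as many up as down. Many more genes differed between the groups here, so that check does not cover this setting. FPKM served to compare genes per length. Alternatives were DESeq2 1.42.0, its size factors in edgeR, no filter on low counts, limma 3.58.1 with trend on log2 FPKM with pseudocounts of 1 and 0.1 (genes that reached 1 FPKM in at least 3 libraries, 8 members), the 6 libraries compared alone, leaving out 13 mitochondrial genes, and leaving out each library in turn.

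Coordinates come from the deposited table (mm10), with strands from GENCODE M21, where 98.6% of identifiers were found. The members, gene lists, markers and tests were chosen with earlier results of these data known, and are no independent support for what those showed. All members are named. Of each pathway list, the 2 called genes with the smallest p in each comparison are named, with Jak2, Igf1r and Igf2. For 6 members the 3 genes with the highest correlation are named, among genes with a mean of at least 5 CPM, at a prior count of 2, without predicted genes. Results of 2 genes that these rules name are not reported here. Igfbp4 and Igfbp7 in the summed binding proteins were named after their values were seen.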

Additional observations from a re-analysis of the deposited data

How the results depend on the processing

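Of 468 alternative values of the members' log2 fold changes, 430 kept their direction and side of the threshold, 10 lost the call, 15 gained it and 13 changed sign. The members called in WT CCl4 against WT NC, 6 of 10, ran from 4 (limma, with 8 members tested) to 7 over the alternatives, and from 5 to 7 with 1 library left out. For KO against WT under CCl4, the 717 genes called became 2770 with DESeq2, 371 with limma at a pseudocount of 0.1 and 30 with the 6 libraries alone, and ran from 5 (without WT CCl4 12) to 5453 (without the library labelled KO 75) with 1 library left out. The members called there were 2 with DESeq2 and ran from 0 to 4 with 1 library left out. For KO CCl4 against WT NC, the 3247 genes called became 1711 with limma at a pseudocount of 1 and ran from 1264 to 3679 with 1 library left out, and the members called were 2 with DESeq2, 2 with limma at either pseudocount, and 0 to 2 with 1 library left out.

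Every sign change concerned a difference that had not passed the test. On the FPKM scale Stat5a became 0.078 and 0.14 in WT CCl4 against WT NC and -0.11 and -0.18 in KO against WT, where Stat5b became -0.049 and -0.056. That scale moved the median of all genes by 0.17 and 0.23 in the first comparison and by -0.15 and -0.21 in the second. In KO against WT, Stat5a became -0.032 without KO 72. Cish became 0.012 without mitochondrial genes and ran from -0.40 to 0.71 (without WT CCl4 11) with 1 library left out, with 0.19 without the library labelled KO 75. Against WT NC, Igfbp1 ran from -0.78 to 0.44 (without WT NC 2), Igfbp3 from -0.44 (without the library labelled KO 75) to 1.13, and Stat5a from -0.23 to 0.0027 (without WT NC 1). The cause of these changes was not tested.

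Depth limits Igf1r, Igf2, Igf2bp2 and Igfbp6, which had under 20 counts in several libraries. Other genes in the list of binding proteins and proteases had as few in WT NC, so its median of 3.51 is uncertain in size. No paired analysis was possible because the groups share no replicate numbers.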
